A study of Mus musculus with 24 samples.

Results

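Eosinophils, basophils and mast cells are minor granule-bearing white cells, and 8 genes that mark them were followed here through sorted myeloid-derived suppressor cells (MDSCs) of the mouse spleen. The genes were chosen by symbol, with earlier results of these data known: Siglec5, Prg2, Epx, Ccr3 and Il5ra for eosinophils, and Mcpt8, Cpa3 and Fcer1a for basophils and mast cells. All 8 have a row among the 23479 genes of the table. The row named Siglec5 was taken as Siglecf, because that symbol is an older name of Siglecf as well as Siglece in RefSeq, and Siglece has a row of its own while Siglecf has none.

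MDSCs are immature myeloid cells that build up in tumour-bearing animals, in a monocytic form (M-MDSC) and a granulocytic form (PMN-MDSC). The study compared 24 RNA-seq libraries in 8 groups of 3, set by genotype label, treatment and cell type. WT mice were C57BL/6 and IL-6KO mice were B6.129S2-Il6tm1Kopf/J, a strain in which the gene of the cytokine interleukin-6 is disrupted. In both genotypes M-MDSCs and PMN-MDSCs came from untreated mice and from mice lymphodepleted with cyclophosphamide and fludarabine, a pair of drugs that kill lymphocytes and dividing marrow cells. Every mouse, untreated ones included, carried an established B16 melanoma of over 25 mm2, so no group shows the cells of a tumour-free spleen. Spleens were taken 7 days after treatment, and the sort is given as over 99% pure. The design text gives 3 mice a group; nothing states if libraries of equal number in the 2 cell types share a mouse.

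Eosinophils mature in the marrow under interleukin-5, whose receptor has its specific chain encoded by Il5ra, and they follow eotaxins through the chemokine receptor Ccr3. They carry the inhibitory sialic acid receptor Siglec-F and store toxic cationic proteins, among them major basic protein (Prg2) and eosinophil peroxidase (Epx), whose transcripts are made mainly while the cell is maturing. Basophils and mast cells share the high-affinity IgE receptor, whose IgE-binding chain is encoded by Fcer1a, and the protease carboxypeptidase A3 (Cpa3), while Mcpt8 encodes a protease of mouse basophils.

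Factors of the GATA family drive all of these lineages, so the promoters of the members were searched for their word. RefSeq promoters (GRCm38.p6, 250 bases before to 50 after the start) were present for 7 of the 8 genes. The 4 printed here are 3 genes that changed in at least 1 comparison and hold the word, and Epx, which changed and holds none. They are written 5′ to 3′ on the gene's strand, with GATA words in capitals. Siglecf is chr7:43351091-43351390 (plus strand), Ccr3 chr9:124021721-124022020 (plus strand, a start inside the gene's span), Il5ra chr6:106748988-106749287 (minus strand) and Epx chr11:87875487-87875786 (minus strand).
Siglecf: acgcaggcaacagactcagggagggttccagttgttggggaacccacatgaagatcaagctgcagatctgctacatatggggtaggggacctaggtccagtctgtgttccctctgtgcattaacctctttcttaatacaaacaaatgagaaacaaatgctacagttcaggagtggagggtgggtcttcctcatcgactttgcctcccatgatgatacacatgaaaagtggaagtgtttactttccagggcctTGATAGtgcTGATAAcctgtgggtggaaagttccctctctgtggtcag
Ccr3: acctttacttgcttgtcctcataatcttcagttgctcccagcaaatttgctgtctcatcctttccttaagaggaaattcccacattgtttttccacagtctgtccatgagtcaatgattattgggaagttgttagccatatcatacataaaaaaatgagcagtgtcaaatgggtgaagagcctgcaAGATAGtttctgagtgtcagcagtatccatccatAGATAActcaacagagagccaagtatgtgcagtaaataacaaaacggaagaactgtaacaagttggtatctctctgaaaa
Il5ra: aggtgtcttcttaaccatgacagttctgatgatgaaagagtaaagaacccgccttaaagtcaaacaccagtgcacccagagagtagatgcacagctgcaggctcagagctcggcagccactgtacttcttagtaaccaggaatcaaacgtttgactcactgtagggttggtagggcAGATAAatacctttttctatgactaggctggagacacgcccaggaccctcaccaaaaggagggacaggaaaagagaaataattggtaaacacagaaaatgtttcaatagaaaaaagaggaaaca
Epx: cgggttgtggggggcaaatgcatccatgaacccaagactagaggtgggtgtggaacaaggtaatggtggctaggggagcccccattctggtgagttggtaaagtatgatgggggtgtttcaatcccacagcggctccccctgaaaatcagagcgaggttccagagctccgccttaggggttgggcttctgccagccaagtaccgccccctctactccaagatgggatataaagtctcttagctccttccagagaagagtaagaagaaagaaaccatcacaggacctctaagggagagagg

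The GATA word searched was AGATAA, with its variant AGATAG, and the forms with a first T, namely TGATAA and likewise the variant TGATAG, on either strand. It stood in 5 of the 7 promoters, those of Siglecf, Ccr3, Il5ra, Cpa3 and Fcer1a, against 30.2% of the 27025 promoters of the same length. In Ccr3 the words began 64 and 30 bases before the start, in Il5ra 74 before, in Cpa3 46 before and in Fcer1a, on the other strand, 92 before. For Ccr3 and Fcer1a the bases just after this start were not found as an unbroken stretch in an annotated transcript of the gene. Their distances rest on the RefSeq start alone. The pair in Siglecf lies just after the start. Epx and Mcpt8 held none in this window. A C/EBP word (TTGCNNAA, in 10.8% of promoters) occurred in Fcer1a alone and a PU.1 word (GAGGAAG, in 13.5%) in Siglecf alone, and neither shared bases with a GATA word. A match is a stretch of letters and was not tied to any change below.

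Levels are normalized read counts, that is, reads divided by 1 size factor per library. Libraries held 3249647 to 11193088 reads, and the 8 genes together took 3 to 253 reads in an M-MDSC library and 47 to 477 in a PMN-MDSC library, so counting error is large for most of them. The labels were checked against markers: between untreated WT-labelled cells, 6 of 6 monocyte genes were higher in M-MDSCs and 7 of 7 mature neutrophil genes higher in PMN-MDSCs. Il6 ran against the genotype labels, with 14 reads over the 12 libraries labelled WT and 1146 over the 12 labelled KO, and a count over a whole gene does not tell an intact from a disrupted transcript. Genotypes are therefore given as labelled, and a direction between them is a direction between labels. In bulk RNA, fewer cells of a type and less RNA per cell cannot be told apart.

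Compared per kb of exon, Siglec5 was the most abundant member in all 4 PMN-MDSC groups, at a mean of 108 normalized reads per kb in untreated WT-labelled cells. Prg2 was the most abundant in lymphodepleted M-MDSCs, at 54.0 per kb in WT-labelled and 46.2 in KO-labelled libraries. Ccr3 reached 13.7 per kb (untreated KO-labelled PMN-MDSCs) and Mcpt8 9.83 (lymphodepleted WT-labelled PMN-MDSCs). That Mcpt8 mean rests on 17 reads and leans on the shallowest library, where 6 reads gave 19.3 normalized reads. In lymphodepleted KO-labelled M-MDSCs Mcpt8 stood at 8.86 per kb on 37 reads. Cpa3 stayed at or under 1.77 per kb in every group.

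**Figure D1:**
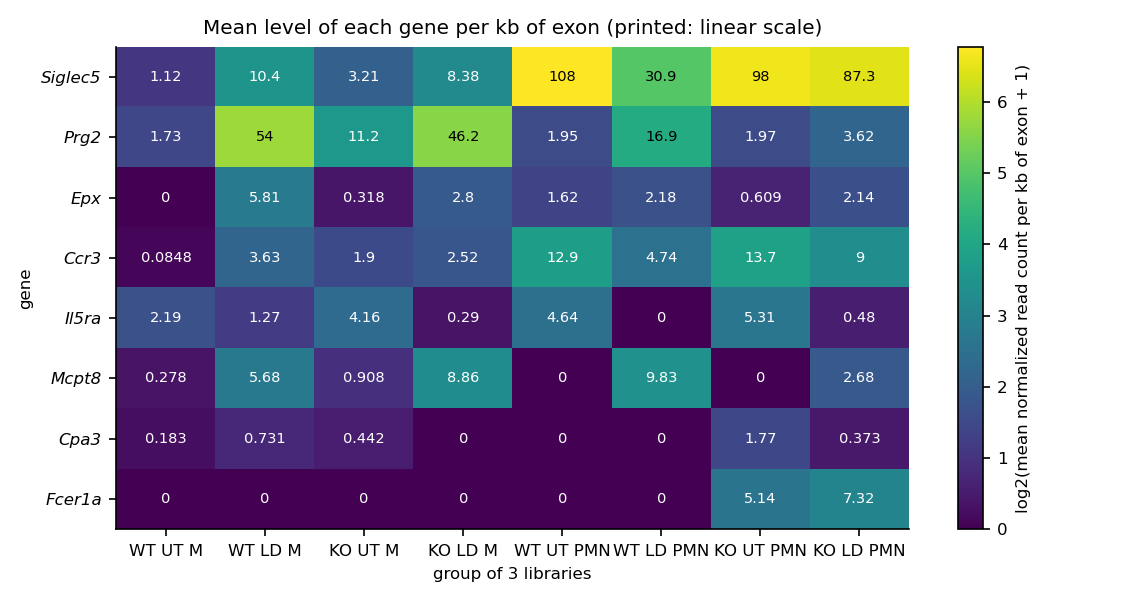
Mean normalized read count per kb of exon for each gene (rows) in each group of 3 libraries (columns; UT untreated, LD lymphodepleted, WT and KO as labelled), coloured on a log2(x + 1) scale with the linear value printed. Siglec5 leads the PMN-MDSC columns and Prg2 the lymphodepleted M-MDSC columns.

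Prg2, Epx, Siglec5 and Ccr3 had few or no reads in untreated WT-labelled M-MDSCs, were read in all 3 lymphodepleted libraries, and rose. Prg2 had 0.785, 1.67 and 1.89 normalized reads in the untreated WT-labelled libraries 1 to 3 and 51.0, 50.3 and 34.5 in the lymphodepleted ones. The groups were far apart, and the log2 change was 4.25 ± 0.83 (SE; limma adjusted p 0.00302). Epx had no read in any of the 3 untreated libraries and 9.43, 19.3 and 19.0 normalized reads after treatment. The treated mean was 18.7-fold the level that 3 reads would give the untreated group, with no counting error allowed in the treated mean itself. The log2 change of Epx was 4.02 ± 0.74 (limma adjusted p 0.00203).

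Siglec5 was at 0, 7.49 and 1.89 normalized reads in the same untreated M-MDSC libraries and at 52.1, 13.2 and 21.6 in the treated ones. The lowest treated library stood above the highest untreated one, and Siglec5 rose by 3.14 ± 0.86 log2 units (limma adjusted p 0.0218). This call rested on single libraries: without any 1 of WT-labelled lymphodepleted library 1 or 3, or untreated library 1 or 3, it was lost (limma adjusted p up to 0.0948). Ccr3 had a total of 1 read over the 3 untreated libraries and 12.8, 3.87 and 19.0 normalized reads after treatment. The ratio of read rates was 41.5, with a 95% counting interval of 7.12 to 1673. Its log2 change was 3.17 ± 0.76 (limma adjusted p 0.0106). Prg2 kept its call without any 1 library, while Ccr3 (without lymphodepleted library 1 or 3) and Epx (without 2 or 3) then had too few reads to test and were called in the other 4 fits.

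Il5ra did not follow them. It was read at 1.57, 12.5 and 9.44 normalized reads in untreated and at 3.33, 0.774 and 9.48 in lymphodepleted WT-labelled M-MDSCs, and the groups overlapped (−0.72 ± 0.95, limma adjusted p 0.632). So 4 of the 5 members tested in M-MDSCs were called higher, where 9.52% of the 11570 genes tested were (18.3% in either direction). The libraries of 4 of the 5 did not overlap, against 38.8% of genes. The median of the 5 was 3.17, against −0.07 over all genes tested. Epx and Ccr3 reached the level needed for a test (10 normalized reads in 3 libraries) only in lymphodepleted libraries, and Il5ra reached it only in untreated ones, so this count describes the genes that passed and not the list of 8. Mcpt8, Cpa3 and Fcer1a did not reach it. The members were also chosen with earlier results of these data known, so their share beside that of all genes is no independent test.

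In the M-MDSCs labelled KO no member passed the threshold in limma, and the untreated libraries differed among themselves. Prg2 was at 11.8, 0 and 16.3 normalized reads in the untreated and 46.5, 47.8 and 21.7 in the lymphodepleted libraries. The groups did not overlap, but the change of 2.63 ± 0.83 missed the threshold (limma adjusted p 0.0552). Epx went from 2.61, 0 and 0 to 6.65, 12.2 and 4.22 normalized reads, also without overlap (2.39 ± 0.74, limma adjusted p 0.0512). Siglec5 was at 6.54, 1.32 and 19.0 against 14.2, 25.1 and 30.8 normalized reads, with overlap (1.72 ± 0.86, limma adjusted p 0.221).

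Ccr3 was already read in all 3 untreated KO-labelled M-MDSC libraries, at 7.84, 3.30 and 7.48 normalized reads, and stood at 6.65, 2.43 and 15.7 after treatment (0.15 ± 0.76, limma adjusted p 0.927). Il5ra had the opposite direction, from 30.1, 11.9 and 2.72 to 1.90, 0 and 1.21 normalized reads, without overlap (−2.62 ± 0.95, limma adjusted p 0.0916). In limma 0 of 5 members were called in the KO-labelled M-MDSCs, with 3 at an unadjusted p under 0.05, where 11.6% of genes were called. For 3 of 5 the libraries did not overlap (27.3% of genes), among them Epx and Il5ra, which each passed the filter through 1 treatment alone. On the recovered reads edgeR called 0 and DESeq2 called 3 of them, Prg2, Epx and Il5ra.

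**Figure D2:**
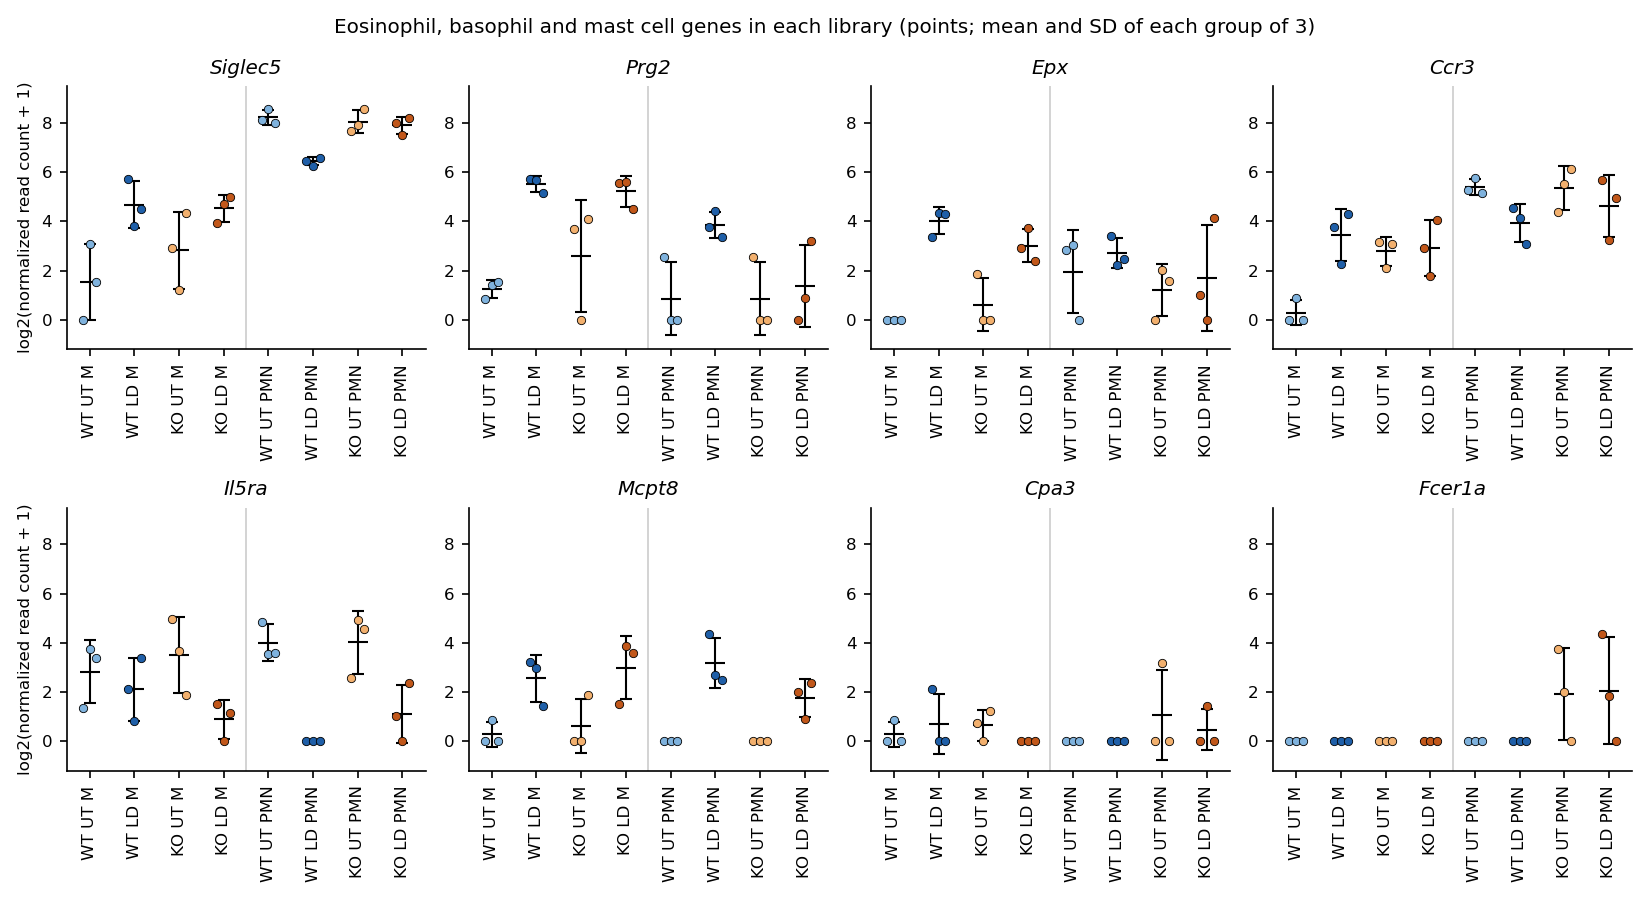
Normalized read count of each gene on a log2(count + 1) scale (y axis) in each library (points) of the 8 groups (x axis; UT untreated, LD lymphodepleted, WT and KO as labelled), with a bar for the mean and a whisker for the SD on that scale. Prg2 and Epx are highest in lymphodepleted M-MDSCs, Mcpt8 in lymphodepleted cells of both types, Siglec5 and Ccr3 in PMN-MDSCs, and Il5ra in untreated libraries.

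An interaction term tested if the response depended on the genotype label. In M-MDSCs 0 of 5 members were called (0.00864% of genes), at −3.02 ± 1.07 for Ccr3 and −1.42 ± 1.22 for Siglec5 as the extremes, and the lowest limma adjusted p was 0.345. 1 of the 5, Ccr3, had an unadjusted p under 0.05, and edgeR and DESeq2 also called 0. Between labels, limma called 0 of 5 in untreated M-MDSCs (4.03% of genes; 1 at an unadjusted p under 0.05), where edgeR called 0 and DESeq2 called 2, Ccr3 and Prg2. In lymphodepleted M-MDSCs limma, edgeR and DESeq2 called 0 of 5 (0.207% of genes by limma; 0 at an unadjusted p under 0.05). Untreated, Ccr3 was higher in all 3 KO-labelled M-MDSC libraries than in any labelled WT, with 28 reads against 1, yet 2.49 ± 0.76 missed the threshold (limma adjusted p 0.0808). It was the 1 of 5 members without overlap there (33.9% of genes), and in lymphodepleted M-MDSCs 0 of 5 were free of overlap (11.3%).

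In untreated PMN-MDSCs the surface receptors Siglec5, Ccr3 and Il5ra held most of the members' reads, and in WT-labelled cells Siglec5 and Il5ra fell with lymphodepletion. Siglec5 stood at 274, 379 and 255 normalized reads in untreated and at 86.7, 76.1 and 95.5 in lymphodepleted WT-labelled libraries. No library of one group came near the other, and Siglec5 fell by 1.79 ± 0.31 log2 units (limma adjusted p 0.00781). Siglec-F is used to sort eosinophils and has also been described on neutrophils in tumours. The row Siglece, a relative on neutrophils and monocytes, went from a mean of 2305 ± 32.8 to 1373 ± 229 normalized reads (SD, n = 3) in the same libraries.

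In KO-labelled PMN-MDSCs Siglec5 kept to one range, at 203, 239.7 and 378 normalized reads untreated and 256, 183 and 292 lymphodepleted (−0.14 ± 0.31, limma adjusted p 0.930). The interaction for Siglec5 was 1.64 ± 0.43, with an unadjusted p of 0.00159 and a limma adjusted p of 0.567, so a difference between the labels was not shown. Set directly against each other, lymphodepleted KO-labelled libraries had more Siglec5 than those labelled WT without overlap (1.47 ± 0.31, limma adjusted p 0.353). DESeq2 on the recovered reads called this difference, limma called 0 of 3 members (0.0154% of genes; 1 at an unadjusted p under 0.05), edgeR called 0, and Siglec5 was the 1 of 3 without overlap (10.2%). In untreated PMN-MDSCs the labels overlapped for all 3 tested members (13.1% of genes did not overlap), and limma called 0 of 3 (0.00771%), with 0 at an unadjusted p under 0.05 and 0 called by edgeR or DESeq2.

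Il5ra was not read in lymphodepleted WT-labelled PMN-MDSCs. It had 28.1, 10.8 and 10.9 normalized reads in the untreated libraries and 0 in all 3 treated ones. The untreated mean was 13.7-fold the level of 3 reads over the treated group, with no counting error allowed in the untreated mean. Il5ra fell by 4.0 ± 1.08 on the log2 scale (limma adjusted p 0.0318), and edgeR did not call it (adjusted p 0.0526). Without any 1 of the 3 untreated libraries or lymphodepleted library 3 the limma call was lost as well (adjusted p up to 0.130). In KO-labelled libraries Il5ra went from 4.95, 29.2 and 22.8 to 1.02, 0 and 4.13 normalized reads, again without overlap (−2.90 ± 1.08, limma adjusted p 0.348).

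Ccr3 in WT-labelled PMN-MDSCs was at 37.9, 54.0 and 34.8 normalized reads untreated and at 22.5, 16.7 and 7.35 lymphodepleted, without overlap but short of the threshold (−1.49 ± 0.75, limma adjusted p 0.198). In KO-labelled libraries the Ccr3 groups overlapped, at 19.8, 45.3 and 69.3 against 49.9, 8.49 and 29.9 normalized reads. In all, 2 of the 3 members tested were lower in WT-labelled PMN-MDSCs, where 6.73% of the 12971 genes tested were lower (10.9% in either direction). That background moves with single libraries: without untreated WT-labelled PMN-MDSC library 1, 81 genes were higher and 33 lower, without library 2, 107 and 54, without library 3, 223 and 184, and without lymphodepleted library 3, 190 and 245. Without lymphodepleted library 1 they were 744 and 1386. Of the members, 3 of 3 were free of overlap (32.9% of genes). In PMN-MDSCs Il5ra reached the level for a test only in untreated PMN-MDSC libraries, so the count describes the 3 that passed, from a list chosen with earlier results known. The median of the 3 was −1.79 and that of all genes −0.20. The authors' scaling places the middle gene below 0 here, and with TMM scaling in edgeR it lay at −0.0046 and the split of called genes turned from 537 higher and 873 lower to 630 higher and 392 lower. Siglec5 was −1.71 on that scaling. In KO-labelled PMN-MDSCs 0 of 3 members were called by limma (0.224% of genes), 1 of 3 was free of overlap (15.8%), with 1, Il5ra, at an unadjusted p under 0.05, and the interaction called 0 of 3 (0% of genes; 1, Siglec5, at an unadjusted p under 0.05). For both, edgeR and DESeq2 called 0.

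**Figure D3:**
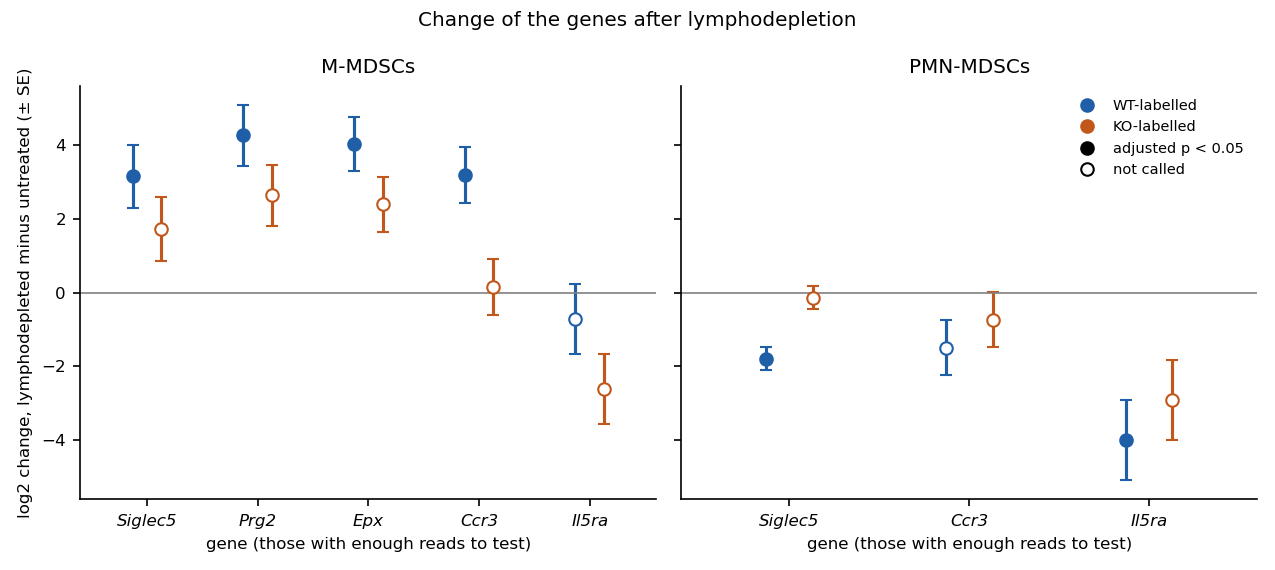
Log2 change from untreated to lymphodepleted (y axis, points; bars are SE) of the members with enough reads to test (x axis) in M-MDSCs and PMN-MDSCs, blue for libraries labelled WT and orange for KO, filled where the limma adjusted p is under 0.05. Siglec5, Prg2, Epx and Ccr3 lie above 0 in WT-labelled M-MDSCs, and all 3 tested members lie below 0 in PMN-MDSCs.

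The granule genes had few reads in PMN-MDSCs and were not tested there. Prg2 had 4.89, 0 and 0 normalized reads in untreated WT-labelled libraries and 12.8, 20.4 and 9.18 in lymphodepleted ones, without overlap, on 4 and 36 reads. In KO-labelled PMN-MDSCs Prg2 was read at 4.95, 0 and 0 against 0, 0.849 and 8.26. Epx had 11 and 12 reads over the untreated and lymphodepleted WT-labelled groups and 5 and 17 over those labelled KO, of which 16 came from 1 library.

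Siglec5 and Ccr3 thus had opposite signs in the cell types of WT-labelled mice, and this difference was tested. The M-MDSC change minus the PMN-MDSC change was 4.93 ± 0.97 for Siglec5 (limma adjusted p 0.0160) and 4.66 ± 1.06 for Ccr3 (0.0396), and 2 of 6 members were called where 0.788% of genes were (0.587% in this direction: 79 higher and 27 lower, or 50 and 32 by edgeR with TMM). As the members were chosen with earlier results of these data known, that share is a description and no independent test. Leaving out single libraries kept Siglec5 in 9 of 12 fits and Ccr3 in 3 of 12. Siglec5 was lost without WT-labelled M-MDSC lymphodepleted library 1 or untreated library 1, or PMN-MDSC untreated library 2. Ccr3 was kept only without M-MDSC lymphodepleted library 2 or PMN-MDSC lymphodepleted library 1 or 2. In KO-labelled mice 0 of 6 members were called by limma (0.0966% of genes; 0 at an unadjusted p under 0.05) or by edgeR and DESeq2, with Siglec5 at 1.87 ± 0.97 and Ccr3 at 0.87 ± 1.06.

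The direct comparison of cell types followed from these levels. Like the interaction, it was fitted without pairing, so its SE and p ignore any mouse shared by libraries of equal number. Siglec5 was lower in M-MDSCs, at −6.69 ± 0.69 log2 units in untreated WT-labelled mice, −5.23 ± 0.69 in untreated and −3.36 ± 0.69 in lymphodepleted KO-labelled mice (limma adjusted p 3.78e-08, 1.72e-06 and 0.000315). In lymphodepleted WT-labelled mice the gap was −1.75 ± 0.69 (limma adjusted p 0.0457), a call kept in 1 of 6 fits that left out a library, the one without M-MDSC library 1, and lost in edgeR, with a pseudocount of 0.5 and without the filter on low levels. Ccr3 was lower in untreated M-MDSCs at −5.12 ± 0.75 (WT-labelled) and −2.57 ± 0.75 (KO-labelled). By limma Prg2 alone was called higher in M-MDSCs, by 3.86 ± 1.01 in lymphodepleted KO-labelled mice (adjusted p 0.00315). Of all genes 50.5% were called between untreated WT-labelled cell types (28.3% lower in M-MDSCs) and 43.8% between untreated KO-labelled ones (23.6% lower), where 2 of 6 members were lower in each. After lymphodepletion 39.3% were called (19.9% lower) in WT-labelled mice, with 1 of 6 members, and 47.4% (23.6% lower and 23.8% higher) in KO-labelled mice, with 1 member in each direction. These shares of members are close to or under the background.

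Ordered by mean, Siglec5 ran from 303 ± 67.0 (SD, n = 3) in untreated WT-labelled PMN-MDSCs through both KO-labelled PMN-MDSC groups, which overlapped it, to 86.1 ± 9.75 in the lymphodepleted WT-labelled group, which overlapped neither neighbour. The 4 M-MDSC groups followed, each overlapping the next. Prg2 had lymphodepleted M-MDSCs on top (45.3 ± 9.35 labelled WT and 38.7 ± 14.7 labelled KO, overlapping), clear of the next group, and each later group overlapped its neighbour. For Il5ra the 4 untreated groups held the 4 highest means, from 19.0 ± 12.6 to 7.83 ± 5.63, but all neighbours overlapped. For Ccr3 only the last step, down to untreated WT-labelled M-MDSCs, was free of overlap.

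Of the basophil and mast cell members, Mcpt8 had most of its reads in lymphodepleted libraries. In PMN-MDSCs it had 0 reads in all 6 untreated libraries, which allows a group mean of up to 1.42 normalized reads (WT-labelled) or 1.25 (KO-labelled) at 3 reads. After lymphodepletion it had 6, 6 and 5 reads in the libraries labelled WT and 3, 1 and 4 in those labelled KO. The treated means were 6.90-fold and 2.15-fold those allowed levels, with no counting error allowed in the treated means. The WT-labelled mean leans on library 1, the shallowest, where 6 reads gave 19.3 normalized reads against 5.56 and 4.59 in libraries 2 and 3. In M-MDSCs Mcpt8 had 15, 9 and 2 reads (WT-labelled) and 2, 17 and 18 (KO-labelled) after treatment, and 1 and 4 reads over the untreated groups. These levels were under the filter in each cell type, so the main fits within a cell type did not test Mcpt8. In the fit over all 24 libraries, which Mcpt8 passed through lymphodepleted libraries, the cell type interaction was −0.92 ± 1.13 (WT-labelled) and 0.61 ± 1.13 (KO-labelled), both uncalled.

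Fcer1a had 0 reads in all 12 M-MDSC libraries and in all 6 PMN-MDSC libraries labelled WT. It was read in 4 of the 6 PMN-MDSC libraries labelled KO, with 5 and 3 reads in untreated and 19 and 3 in lymphodepleted ones. Cpa3 had 0 to 8 reads a group, the 8 all in 1 untreated KO-labelled PMN-MDSC library, and no group differed in a way these counts could show.

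Other genes of the lineages, from lists chosen with earlier results of these data known, were read beside the members. Of 12 further basophil genes 7 were tested in M-MDSCs. In WT-labelled cells 1 rose and 2 fell: Prss34, a basophil protease, had 0 reads in untreated and a mean of 11.5 in lymphodepleted libraries (3.49 ± 0.81, limma adjusted p 0.00934; it passed the filter through lymphodepleted libraries alone), while Itga2 (−3.42 ± 0.36) and Gzmb (−2.73 ± 0.35), also expressed by NK cells, fell. Their list's median was −0.53. In WT-labelled PMN-MDSCs 0 of 9 were called, with Prss34 at 3.72 ± 1.16 (adjusted p 0.0502).

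Of 14 further mast cell genes only 4 were tested in M-MDSCs, and several of the proteases that mast cells store were near 0: Mcpt1 had no read in any library, and Mcpt4, Tpsb2 and Tpsab1 had none in at least 6 of the 8 groups. Hdc, which makes histamine, rose by 3.42 ± 0.51 and Kit, the stem cell factor receptor of mast cells and progenitors, by 2.89 ± 0.46 in WT-labelled M-MDSCs, whereas Cma1, a mast cell chymase at a mean of 33.1 normalized reads untreated, fell (−3.82 ± 0.66). In WT-labelled PMN-MDSCs Kit rose by 2.14 ± 0.45, and Hdc, at a mean of 10601 normalized reads untreated, fell (−0.94 ± 0.25), as did Mitf (−1.32 ± 0.40).

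Of 15 further eosinophil genes 5 were tested in M-MDSCs, where Emr4 fell (−1.28 ± 0.37, WT-labelled), and 6 in PMN-MDSCs, where Ccl6 fell (−1.91 ± 0.34, WT-labelled). Neither is restricted to eosinophils. Ear10 had no read in any library and Prg3, which encodes a second major basic protein, had group means of 0 to 6.42. The medians of the tested genes were −0.42 in WT-labelled M-MDSCs and −1.57 in WT-labelled PMN-MDSCs.

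Among 10 cytokine receptors of these lineages 9 were tested in M-MDSCs, and Kit rose and Il9r fell (−2.45 ± 0.69) in WT-labelled cells. The shared signalling chain of the interleukin-5 receptor, Csf2rb, was at 0.06 ± 0.13 there and −0.37 ± 0.23 in WT-labelled PMN-MDSCs, uncalled in both. Of the IgE receptor pathway, 4 of 10 tested genes fell in WT-labelled M-MDSCs where 1020 of 11570 genes were lower, and 4 of 11 in WT-labelled PMN-MDSCs, where 873 of 12971 were lower (392 with TMM). Syk, the kinase that the receptor engages, fell in both (−0.46 ± 0.12 and −0.83 ± 0.26), and the common chain Fcer1g was uncalled in both (0.17 ± 0.28 and 0.27 ± 0.27). Of 13 lineage transcription factors tested in M-MDSCs 1 rose in WT-labelled cells, Cebpe, a factor needed for granule formation (4.85 ± 0.64, limma adjusted p 0.000212). It also rose in WT-labelled PMN-MDSCs (2.93 ± 0.88), where Stat5b and Mitf fell. Gata1 and Gata2 had too few reads for a test in M-MDSCs, with group means of up to 7.58 and 9.54.

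Genes of other lists moved in the same libraries. In WT-labelled M-MDSCs 12 of 12 cell cycle genes rose (median 4.71) and their summed level went from 835 to 895 up to 16831 to 27929 normalized reads. There 8 of 9 progenitor and primary granule genes rose too, such as Elane (6.82 ± 1.01), with sums of 3312 to 3687 before and 11218 to 23635 after, and no gene of either list was at 0 in a group. Among the lymphodepleted WT-labelled M-MDSCs, library 3 had the highest cell cycle sum, 27929, and the lowest Prg2, 34.5. Among those labelled KO, library 2 had the highest of both, 28443 and 47.8, and library 1 had the lowest sum, 12432, with Prg2 at 46.5. In KO-labelled M-MDSCs 12 of 12 cell cycle genes rose (median 2.995), and 1 of 9 progenitor and primary granule genes. Limma called no member there, but Prg2 (2.63 ± 0.83, limma adjusted p 0.0552) and Epx (2.39 ± 0.74, limma adjusted p 0.0512) were higher without overlap. In WT-labelled PMN-MDSCs, where Siglec5 fell, 11 of 12 cell cycle genes rose as well. Mature neutrophil genes rose in 3 of 7 cases in WT-labelled M-MDSCs, with sums of 3241 to 3518 before and 5979 to 21854 after, against 126124 to 149139 in untreated WT-labelled PMN-MDSCs. Lymphodepleted WT-labelled M-MDSC library 1 had both the highest of these M-MDSC sums and the highest Siglec5, and 3 of 7 neutrophil genes were also called in the cell type interaction that called Siglec5 and Ccr3. No neutrophil gene was at 0 in a group. The untreated KO-labelled M-MDSC library 3 had the highest Prg2 and Siglec5 of its group. It also had the group's highest cell cycle sum, 8285, and progenitor and primary granule sum, 11388. Its mature neutrophil sum was 2758, near the 3012 and 2992 of libraries 1 and 2. Among lymphodepleted KO-labelled M-MDSCs, library 1 had the lowest Siglec5, 14.2, and the lowest mature neutrophil sum, 4636. Library 3 had the highest Siglec5 there, 30.8, and library 2 the highest sum, 9917. Which cells express the genes of these lists, and if they take part in the levels of Prg2, Epx, Siglec5, Ccr3 or Mcpt8, was not tested.

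Summed lymphocyte genes were lower in lymphodepleted libraries, as Il5ra was in 3 of the 4 comparisons without overlap; in WT-labelled M-MDSCs the Il5ra groups overlapped while 5 of 6 B cell genes and 6 of 6 NK cell genes fell. Mouse B-1 cells also carry Il5ra. The B cell list's 6 genes were all called lower in lymphodepleted WT-labelled PMN-MDSCs, with summed levels of 854 to 988 normalized reads before and 34.9 to 122 after. In KO-labelled PMN-MDSCs the sums were 721 to 1549 before and 46.7 to 125 after, with 2 of 6 called lower. In M-MDSCs 5 of 6 (WT-labelled) and 6 of 6 (KO-labelled) were called lower, with sums of 279 to 345 before and 34.8 to 68.8 after (WT-labelled) and 573 to 940.4 before and 66.4 to 92.3 after (KO-labelled). No B cell gene was at 0 in a group. NK cell genes were called lower in 6 of 6 cases in both M-MDSC comparisons and in 1 of 6 (WT-labelled) and 0 of 6 (KO-labelled) in PMN-MDSCs, with sums in WT-labelled PMN-MDSCs of 257 to 366 before and 61.0 to 177 after. T cell genes were called lower in 1 and 4 of 6 (M-MDSCs labelled WT and KO) and in 2 and 0 of 6 (PMN-MDSCs), with sums of 183 to 273 before and 37.1 to 73.8 after in WT-labelled PMN-MDSCs, where Cd3e was at 0. The part of these cells in the Il5ra levels was not tested.

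**Figure D4:**
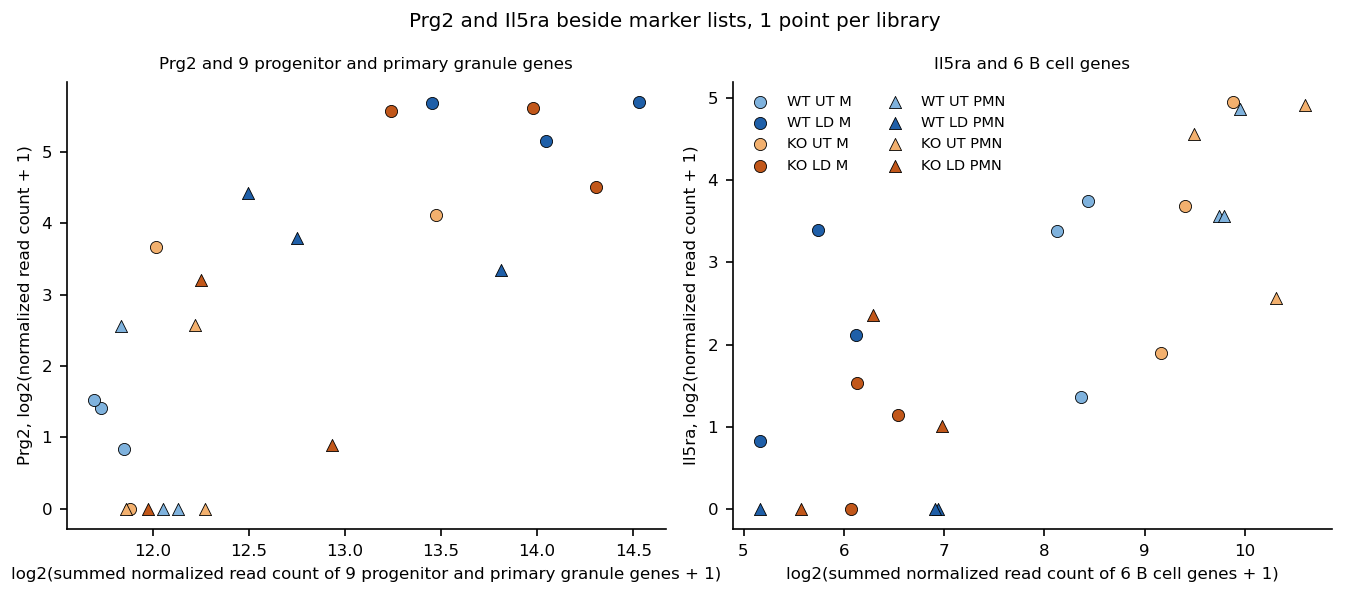
Each point is 1 library: left, Prg2 against the summed level of 9 progenitor and primary granule genes; right, Il5ra against that of 6 B cell genes, all as log2(normalized read count + 1), circles for M-MDSCs, triangles for PMN-MDSCs, light for untreated and dark for lymphodepleted, blue labelled WT and orange KO. Lymphodepleted M-MDSCs lie at the upper right on the left, and untreated libraries lie to the right of lymphodepleted ones in the Il5ra plot.

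The genes most like each member over the 12 libraries of a cell type were taken by Pearson's r of log2(normalized count + 1), as a description: libraries share their treatment group, so r follows the group means. In M-MDSCs, among 10655 genes, Siglec5 was most like Ube2c (r = 0.953), Kpna2 and Elane, and Prg2 most like Psrc1 (r = 0.972), Sapcd2 and Sgol1. Epx was nearest to Tg (r = 0.952), Tssc4 and Cxcr2, and Il5ra to Nkiras2 (r = 0.932), Kbtbd2 and Gjb2. Snrpd2 (r = 0.933) and Zfp473 were among the 3 nearest to Ccr3. In PMN-MDSCs, among 11881 genes, Siglec5 was most like Ebpl (r = 0.965), with Dusp7 also among its 3 nearest, and Ccr3 most like St3gal1 (r = 0.943), Pla2g4f and Gsg1l. Il5ra there was nearest to Cd96 (r = 0.956), Lax1 and Wipf1.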

How the data were processed

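Total RNA of sorted spleen MDSCs was sequenced in 24 libraries (100 ng of RNA each, NuGen Ovation Mouse RNA-seq with AnyDeplete removal of ribosomal RNA, per the labels' protocols). The authors deposited normalized signal values, each a read count over the size factor of its library. The tools named are HTSeq 0.6.1, STAR 2.5.3a and DESeq2, with build mm10, per the submitters' processing notes; annotation, strand setting and filters are likewise not given in the sources used here. All values (100%) of every library were whole multiples of 1 step (tolerance 0.001), so whole reads were recovered. Depth was 3249647 to 11193088 reads per library, and read intervals (95%, exact) and floors of 3 reads cover counting error only. A floor of 3 reads covers it in the group without reads alone.

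The test was limma 3.58.1 (R 4.3.3) with trend on log2(normalized count + 1), two-sided, on 1 mean per group: the 12 libraries of a cell type, or all 24 between cell types. A gene was tested when 3 or more of the fitted libraries held at least 10 normalized reads of it. P-values were adjusted over all genes tested by the Benjamini-Hochberg method and called under 0.05. Fold changes on this scale understate changes of low genes. Alternatives were pseudocounts of 0.5 and 5, no filter, edgeR 4.0.16 with TMM and DESeq2 1.42.0 on the recovered reads, a replicate block, each library left out, and, added after seeing the data, leaving out the 3 shallowest PMN-MDSC libraries. The scripts were tested on simulated data. Members and the 19 lists (155 genes, 154 with a row, 5 by an older symbol) were chosen with earlier results of these data known. Named genes were the members, and from each other list up to 3 called genes with the smallest adjusted p in a described comparison or up to 2 of the highest level. Fcer1g, Csf2rb, Prss34 in PMN-MDSCs and the genes at or near 0 were named after their values were seen. Some genes the rule would name are not reported here. Gene positions and promoters came from RefSeq GRCm38.p6. No member's exons overlapped another gene's, and of 50-base windows 6 of 2915 in Siglecf and 37 of 3670 in Il5ra occur in other genes.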

Additional observations from a re-analysis of the deposited data

Results flagged for a closer look

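The response to lymphodepletion differed between the cell types of WT-labelled mice for 2 members, by a test of the difference itself (limma interaction, M-MDSC change minus PMN-MDSC change). Siglec5 differed by 4.93 ± 0.97 log2 units (adjusted p 0.0160), being higher after treatment in 3 of 3 M-MDSC libraries and lower in 3 of 3 PMN-MDSC libraries than in any untreated library of the cell type. Ccr3 differed by 4.66 ± 1.06 (adjusted p 0.0396), with the same pattern over the libraries but on 1 read in the untreated M-MDSC group. Its fall in PMN-MDSCs was itself uncalled (limma adjusted p 0.198). With single libraries left out, the interaction stayed called in 9 of 12 fits for Siglec5 and in 3 of 12 for Ccr3.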

How the results depend on the processing

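Most member changes kept their direction and side of the threshold. The number of members called was the same in every pseudocount of 0.5 fit, and the replicate block changed no call and left 4 called in WT-labelled M-MDSCs. That block joined libraries of equal number over all fitted groups, so it could not check a pairing of M-MDSCs with PMN-MDSCs by mouse. Not every same-numbered pair of libraries deviated together (correlations −0.176 to 0.225, 12 of 84 over 0.1; 32 of 84 best with their own number; M-MDSC with PMN-MDSC of 1 genotype and treatment: 4 of 12 over 0.1, median 0.03, 8 of 12 best with their own number, a hint from the data and not the design), so the numbers were not taken as pairs. Against 0 called in KO-labelled M-MDSCs after lymphodepletion there was 1 with a pseudocount of 5, 1 without the filter and 3 by DESeq2. Against 0, DESeq2 called 2 between labels in untreated M-MDSCs and 1 in lymphodepleted PMN-MDSCs. Against 2 called in WT-labelled PMN-MDSCs, edgeR called 1, as did the fit without the 3 shallowest libraries (added after seeing the data). Without the filter Mcpt8 was called there (3.18 ± 0.87, adjusted p 0.0421). Between lymphodepleted WT-labelled cell types (1 called, Siglec5) edgeR and a pseudocount of 0.5 each called Il5ra instead, and there were 2 with a pseudocount of 5, 2 by DESeq2, 0 without the filter and 0 without the shallow libraries. The cell type interaction (2 called) gave 1 with a pseudocount of 5 and 1 without the filter. Leaving out 1 library gave 1 to 4 called in WT-labelled and 0 to 2 in KO-labelled M-MDSCs, 1 to 2 in WT-labelled PMN-MDSCs, 0 to 1 between labels in untreated M-MDSCs, 0 to 1 between lymphodepleted WT-labelled cell types and 0 to 2 in the interaction. Over all genes, DESeq2 called more than limma: 1071 against 466 between labels in untreated and 185 against 24 in lymphodepleted M-MDSCs, 71 against 1 in their interaction, 236 against 29 in KO-labelled and 46 against 2 between labels in lymphodepleted PMN-MDSCs, and 342 against 106 and 98 against 13 in the cell type interactions. With the block there were 269 and 8 between labels in M-MDSCs, and 249 without the filter untreated. Leaving out 1 library gave 114 to 2130 genes in WT-labelled PMN-MDSCs (1410 in all libraries), 54 to 544 between labels in untreated M-MDSCs (466), 1163 to 2469 and 568 to 1710 in WT- and KO-labelled M-MDSCs (2122 and 1346) and 36 to 316 in the WT-labelled cell type interaction (106). The cause of these shifts was not tested.

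Values that changed sign were uncalled in the main analysis. Ccr3 between labels in untreated PMN-MDSCs was −0.06, and 0.17 by edgeR, 0.16 by DESeq2 and 0.30 without the shallow libraries; Prg2 between untreated WT-labelled cell types was 0.41, and −0.20, −0.31 and −0.02. With 1 library left out, the ranges that crossed 0 were these. Lymphodepletion: Ccr3 −0.19 to 0.72 (KO-labelled M-MDSCs) and Siglec5 −0.33 to 0.12 (KO-labelled PMN-MDSCs). Labels, M-MDSCs: Il5ra −0.06 to 1.49 untreated, and Ccr3 −1.13 to 0.04, Prg2 −0.47 to 0.08 and Siglec5 −0.57 to 0.38 lymphodepleted. Labels, untreated PMN-MDSCs: Ccr3 −0.45 to 0.43, Il5ra −0.43 to 0.75 and Siglec5 −0.43 to 0.01. Cell types: Prg2 −0.02 to 1.26 (untreated WT-labelled), Ccr3 −0.89 to 0.13 (lymphodepleted WT-labelled), and Il5ra −1.23 to 0.30 (untreated) and −0.79 to 0.39 (lymphodepleted) labelled KO. Depth limits every member but Siglec5 in PMN-MDSCs, since most groups hold under 100 reads of a member.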

Other observations

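Il9r, a cytokine receptor of mast cells and lymphocytes, had lower group means after lymphodepletion in each of the 4 comparisons: 13.7 to 2.25 and 21.0 to 7.90 normalized reads in M-MDSCs labelled WT and KO, and 34.8 to 7.51 and 54.2 to 5.11 in PMN-MDSCs. It was called in WT-labelled M-MDSCs alone (−2.45 ± 0.69, limma adjusted p 0.0259). Ms4a2, the chain of the IgE receptor that amplifies its signal, was read in 7 of the 8 groups, at means of 2.90 to 13.3 normalized reads, among them M-MDSC groups in which Fcer1a had no read. Alox15, an eosinophil and macrophage lipoxygenase, had its highest M-MDSC mean in lymphodepleted KO-labelled libraries, at 23.3 normalized reads, and was called in no lymphodepletion comparison.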
